A study of Homo sapiens with 4 samples.

Results

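The mRNAs described here encode 5 elongation factor proteins (EEF1A1, EEF1B2, EEF1D, EEF1G and EEF2) and 5 other proteins whose mRNAs are classed with the TOP mRNAs (TPT1, RACK1, PABPC1, NAP1L1 and NACA). The 10 mRNAs were chosen with earlier results of these data known. Their probes were found by matching the accession of each non-control array probe to these 10 gene symbols, with no use of measured values. This gave 16 of the 50599 probes, namely 5 for EEF1A1, 2 each for TPT1 and NAP1L1 and 1 for each of the other 7 genes. All 10 were among the 13039 genes kept for testing, and 15 of the 16 probes were detected on all 4 arrays. The exception was 1 NAP1L1 probe, which was not well above background on total RNA replicate 2.

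KYSE180 is an established human esophageal squamous cell carcinoma (ESCC) line. RNA that came down with an anti-TIA1 antibody from its cytoplasmic lysate (TIA1 RIP, n = 2 arrays) and total RNA of the input (total RNA, n = 2 arrays) were each labelled with Cy3 from 0.2 µg and hybridized to 1-colour Agilent arrays, to ask which mRNAs are associated with TIA1. No treatment or genetic change was named for either group, and both came from the same line, so the values describe 1 cancer line. IgG precipitates were not analysed here, and the signal of RNA that binds beads or antibody without TIA1 was therefore not available as a background. The labels do not say that replicates came from separate cultures, so p-values measure only the spread between these arrays. All 10 squamous epithelial markers examined (among them KRT5, KRT14, TP63 and SOX2) were detected on both total RNA arrays, against 1 of 4 blood cell, 1 of 4 fibroblast and 1 of 3 endothelial markers.

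The total RNA arrays did not match each other. The 75th percentile of the spot signal, which was set to 0 on the log2 scale of each array, was 1514 and 1271 for TIA1 RIP replicates 1 and 2 and 714 for total RNA replicate 1, but 69.9 for total RNA replicate 2. On the last array 32.2% of the spots were well above background, against 45.8% to 48.4% on the other 3, and no spot was saturated on any of them. The ratios of the 10 mRNAs and the medians of the lists are therefore given against either total RNA array alone as well as against their mean.

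TOP mRNAs begin with a C at the cap followed by an unbroken run of pyrimidines, the 5′ terminal oligopyrimidine tract. Their translation is switched as a group by growth and nutrient signals through mTOR, and most of them encode ribosomal proteins or other parts of the translation machinery. TIA1 and its relative TIAL1 bind U-rich and pyrimidine-rich RNA, collect with stalled mRNAs in stress granules, and have been linked to the repression of TOP mRNAs during starvation. TOP mRNAs are among the most abundant mRNAs of a growing cell.

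The start sites show the feature that gives the class its name. RefSeq windows on GRCh38.p14 were matched for 8 of the 10 genes and held 9 annotated starts, 2 of them for EEF1B2. In each line below 10 bases before the annotated start are followed by the first 20 bases of the transcript, and capitals mark the unbroken run of C and T that begins with a C at the annotated start.

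EEF1A1: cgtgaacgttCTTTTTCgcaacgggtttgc
EEF1B2 (downstream start): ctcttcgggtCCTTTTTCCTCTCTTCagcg
EEF1B2 (upstream start): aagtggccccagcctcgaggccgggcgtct
EEF1G: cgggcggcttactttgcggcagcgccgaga
EEF2: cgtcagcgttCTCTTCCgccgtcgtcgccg
TPT1: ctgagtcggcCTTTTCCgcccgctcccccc
RACK1: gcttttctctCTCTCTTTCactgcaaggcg
NAP1L1: gctcttgggtCTTTTTTagcgccatctgct
NACA: ctcgctcggtCTTTCTgccgccatcttggt

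On GRCh38.p14 these windows lie at chr6:73521013-73521042 for EEF1A1, chr2:206159885-206159914 and chr2:206159599-206159628 for EEF1B2, chr11:62573872-62573901 for EEF1G, chr19:3985444-3985473 for EEF2, chr13:45341164-45341193 for TPT1, chr5:181243887-181243916 for RACK1, chr12:76084666-76084695 for NAP1L1 and chr12:56725280-56725309 for NACA. EEF1B2 is read from the plus strand and the other 7 from the minus strand. A C at the start followed by at least 4 more pyrimidines, on the strand of the transcript, was present at 7 of the 9 starts (77.8%), with runs of 6 to 16 bases. The same rule held for 4.07% of the 35116 starts in the whole table, for 5.25% of the starts of genes kept on the arrays and for 60.0% of the 80 starts of cytoplasmic ribosomal protein genes. The exceptions were EEF1G and the upstream start of EEF1B2, which carried no such run at the annotated base. Annotated starts can lie some bases from the starts used in KYSE180 cells, which were not measured here. With the run allowed to begin within 10 bases of the annotated start, the share of the 9 starts stayed at 77.8%. It then rose to 33.5% of the starts in the whole table and 34.1% for genes kept on the arrays. For ribosomal protein genes it was 82.5%.

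Against total RNA replicate 1, every one of the 10 mRNAs had a lower scaled signal on both TIA1 RIP arrays. Of all genes 35.5% showed this pattern. With quantile normalization 9 of the 10 did (35.4% of all genes). The count was also 9 with probes detected on all 4 arrays (37.1%) and with the brightest probe of a gene (36.0%). The NAP1L1 probe detected on all 4 arrays had 4.04 on TIA1 RIP replicate 2 and 4.03 on total RNA replicate 1. With the E1A spike-in controls (synthetic RNAs added at labelling) at 0 none of the 10 was lower, and the ratio of the median gene was 3.44. The ratio against total RNA replicate 1 was below that of the median gene for all 10 with the spike-in controls too, and under every scaling and filter tried except quantile normalization, where PABPC1 was above it. The log2 ratio of the TIA1 RIP mean to that array ran from -1.74 (EEF1D) to -0.20 (NAP1L1), with a median of -0.95 beside 0.07 over all genes. The ratios spread more against total RNA replicate 2, from -3.52 (EEF1D) to 2.86 (NAP1L1), with a median of -0.75 beside -0.29 over all genes. Compared array by array, 7 of the 10 mRNAs lay below both total RNA arrays on both TIA1 RIP arrays (21.7% of all genes did). None lay above both (19.4% did), and PABPC1, NAP1L1 and NACA overlapped. The 7 depended on the scaling. With normexp background correction 4 of the 10 lay below total RNA replicate 2 on both TIA1 RIP arrays (51.8% of all genes). With quantile normalization 3 of the 10 did (43.6% of all genes). limma with Benjamini-Hochberg adjustment called 0 of the 13039 genes (0% of those tested) and none of the 10, whose adjusted p ran from 0.776 to 0.965. At an unadjusted p under 0.05 limma found 668 genes, 524 of them lower in TIA1 RIP (4.02%), and of the 10 mRNAs EEF1D and EEF1G were among the lower ones.

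**Figure D1:**
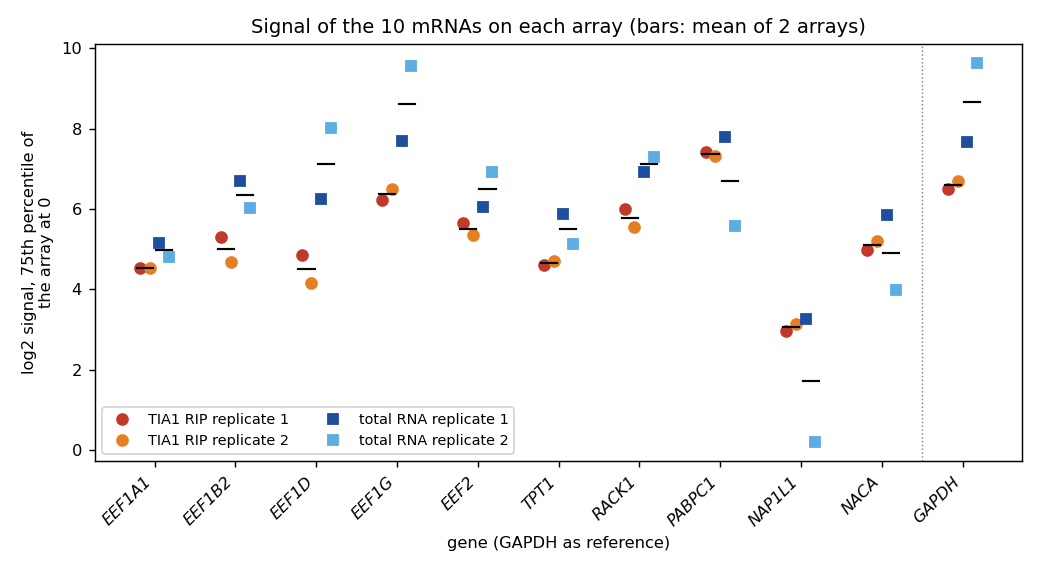
Scaled log2 signal (y axis, the array's 75th percentile at 0) of the 10 mRNAs and of GAPDH (x axis) on the 2 TIA1 RIP arrays (circles) and the 2 total RNA arrays (squares), with a bar at the mean of each group. The circles lie close together and below the square of total RNA replicate 1 for all 10 mRNAs on this scale. That held for 9 of the 10 with quantile normalization or the brightest probe of a gene, and for none with spike-in controls at 0. The squares lie up to 3.07 apart (NAP1L1, mean of its 2 probes, 1 of them not well above background on total RNA replicate 2).

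Elongation factor 1A brings aminoacyl-tRNA to the ribosome, and EEF1A1 encodes the form found in most cells. The gene lies at chr6:74199031-74235310 on GRCh37, minus strand. Averaged over its 5 probes, the log2 signal of EEF1A1 was 4.54 and 4.52 in TIA1 RIP, compared with 5.15 and 4.80 in total RNA. Both TIA1 RIP values were below both total RNA values, but the log2 ratio of -0.45 ± 0.77 (SE, n = 2 per group, adjusted p = 0.890, limma) was smaller than its error. It was -0.63 against total RNA replicate 1 and -0.28 against replicate 2. The 5 probes did not measure the same ratio. Against total RNA replicate 1 they ran from -1.01 to -0.35, all below 0, and against total RNA replicate 2 they ran from -1.67 to 0.91.

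EEF1B2, EEF1D and EEF1G encode the beta, delta and gamma subunits of the exchange complex that reloads elongation factor 1A with GTP. These 3 mRNAs had the lowest ratios of the 10 against total RNA replicate 1. The EEF1B2 gene (chr2:207024309-207027652 on GRCh37, plus strand) gave log2 signals of 5.31 and 4.68 in TIA1 RIP against 6.69 and 6.01 in total RNA, a log2 ratio of -1.35 ± 0.80 (SE, n = 2 per group, adjusted p = 0.776, limma), and -1.69 and -1.02 against total RNA replicates 1 and 2. EEF1D (chr8:144661867-144681711 on GRCh37, minus strand) gave 4.84 and 4.16 in TIA1 RIP against 6.24 and 8.02 in total RNA, and its log2 ratio of -2.63 ± 0.92 (SE, n = 2 per group) was the lowest of the 10, as were its ratios of -1.74 and -3.52 against the single total RNA arrays. EEF1G (chr11:62327068-62341558 on GRCh37, minus strand) gave 6.23 and 6.49 in TIA1 RIP against 7.69 and 9.55 in total RNA, a log2 ratio of -2.26 ± 0.91 (SE, n = 2 per group), and -1.33 and -3.19 against the single arrays. For both EEF1D and EEF1G the groups did not overlap, the limma p was 0.0238 and 0.0423 before adjustment and 0.776 after it, and total RNA replicate 2 stood 1.78 and 1.86 above replicate 1. Elongation factor 2 moves the ribosome along the mRNA by 1 codon, and EEF2 (chr19:3976054-3985461 on GRCh37, minus strand) had log2 signals of 5.65 and 5.35 in TIA1 RIP against 6.05 and 6.92 in total RNA. Its groups did not overlap either, with a log2 ratio of -0.99 ± 0.80 (SE, n = 2 per group, adjusted p = 0.785, limma), and -0.55 and -1.43 against total RNA replicates 1 and 2.

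TPT1 encodes translationally controlled tumour protein, a growth-related protein whose mRNA is a classical TOP mRNA. TPT1 (chr13:45907606-45915419 on GRCh37, minus strand) had log2 signals of 4.60 and 4.70 in TIA1 RIP against 5.86 and 5.13 in total RNA. The groups did not overlap, and the log2 ratio was -0.84 ± 0.79 (SE, n = 2 per group, adjusted p = 0.803, limma), with -1.21 and -0.48 against total RNA replicates 1 and 2. Its 2 probes gave nearly the same ratio against total RNA replicate 1, -1.19 and -1.23. RACK1 encodes a scaffold protein of the small ribosomal subunit. RACK1 (chr5:180663897-180675096 on GRCh37, minus strand) had log2 signals of 5.99 and 5.55 in TIA1 RIP against 6.93 and 7.28 in total RNA, again without overlap, for a log2 ratio of -1.34 ± 0.78 (SE, n = 2 per group, adjusted p = 0.776, limma). Its ratios to total RNA replicates 1 and 2 were -1.16 and -1.51. RACK1 and EEF1A1 had the smallest differences between the total RNA arrays, 0.36 and -0.35 (replicate 2 minus replicate 1).

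PABPC1, NAP1L1 and NACA were the mRNAs whose direction turned with the total RNA array. PABPC1 encodes the main cytoplasmic poly(A) binding protein, which binds mRNA tails and is itself a component of stress granules. PABPC1 (chr8:101698044-101735037 on GRCh37, minus strand) had log2 signals of 7.42 and 7.32 in TIA1 RIP, 7.80 in total RNA replicate 1 and 5.57 in total RNA replicate 2. The TIA1 RIP mean was thus 0.43 below the first total RNA array and 1.80 above the second, and the log2 ratio to their mean was 0.69 ± 0.97 (SE, n = 2 per group, adjusted p = 0.866, limma).

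NAP1L1 encodes a histone chaperone of the nucleosome assembly family. NAP1L1 (chr12:76430365-76478515 on GRCh37, minus strand) had log2 signals of 2.97 and 3.14 in TIA1 RIP, 3.26 in total RNA replicate 1 and 0.19 in total RNA replicate 2. Its log2 ratio was -0.20 against the first total RNA array, 2.86 against the second and 1.33 ± 1.12 (SE, n = 2 per group, adjusted p = 0.785, limma) against both. The processed signal of its dimmer probe on total RNA replicate 2 was 34.3, the lowest of the 16 probes there and not well above background, so on that array the gene rested on 1 detected probe of 2. With the probe detected on all 4 arrays alone, the log2 ratio was -0.29 against total RNA replicate 1, 2.33 against replicate 2 and 1.02 against both. NACA encodes the alpha subunit of the nascent polypeptide-associated complex, which binds new chains at the ribosome exit. NACA (chr12:57106089-57125412 on GRCh37, minus strand) had log2 signals of 4.98 and 5.21 in TIA1 RIP, 5.85 in total RNA replicate 1 and 3.98 in total RNA replicate 2. Its log2 ratio was -0.75 against the first, 1.12 against the second and 0.18 ± 0.92 (SE, n = 2 per group, adjusted p = 0.965, limma) against both. The genome holds processed or near-identical copies of several of these genes, EEF1A1, EEF1B2, TPT1 and NACA among them, so their probes may also read such copies, which was not tested.

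The study compared precipitated mRNAs with GAPDH, a glycolytic enzyme mRNA taken as one that TIA1 does not bind. Its list held mRNAs past 2.5-fold both on arrays and by sequencing of precipitated RNA. The counts below use the arrays alone and are not that list. GAPDH itself had log2 signals of 6.49 and 6.69 in TIA1 RIP against 7.67 and 9.63 in total RNA, a log2 ratio of -2.06 ± 0.93 (SE, n = 2 per group). Relative to GAPDH on the group means, 4 of the 10 mRNAs were past 2.5-fold, where 72.4% of all genes were: EEF1A1 (3.05-fold), NACA (4.73-fold), PABPC1 (6.71-fold) and NAP1L1 (10.5-fold). None of the 10 passed against total RNA replicate 1 (42.3% of all genes did), and the folds ran from 0.631 for EEF1D to 1.83 for NAP1L1. Against total RNA replicate 2, 8 of the 10 passed (77.5% of all genes did), with PABPC1 at 28.8-fold and NACA at 17.9-fold. NAP1L1 was at 59.9-fold there with both probes and at 41.4-fold with the detected probe alone (8.46-fold on the means). EEF1D and EEF1G, at 0.720-fold and 0.906-fold, were the ones that did not.

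No mRNA of the 10 was past 2.5-fold in all 4 pairs of a TIA1 RIP and a total RNA array, where 26.2% of all genes were. Above GAPDH in all 4 pairs were 5 of them (EEF1A1, EEF2, PABPC1, NAP1L1 and NACA), beside 76.0% of all genes. The median log2 value relative to GAPDH was 0.12 against total RNA replicate 1, beside 1.15 over all genes, and 2.30 against replicate 2, beside 2.75. With the GAPDH value of the same array subtracted, limma called none of the 10 and none of the 13038 genes tested. Adjusted p of the 10 ran from 0.239 to 0.805, and none was under 0.05 before adjustment, where 2637 genes were.

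**Figure D2:**
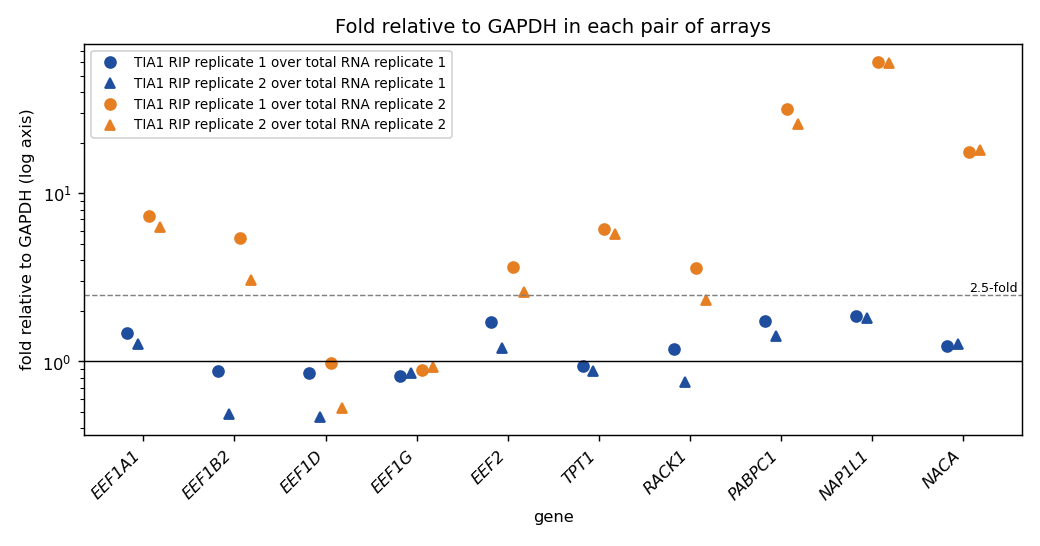
Fold relative to GAPDH (y axis, log scale) of the 10 mRNAs (x axis) in each pair of a TIA1 RIP and a total RNA array, with lines at 1-fold and 2.5-fold. All pairs with total RNA replicate 1 (blue) lie under 2.5-fold, and pairs with replicate 2 (orange) reach 60.5-fold for NAP1L1 (mean of its 2 probes, 1 of them not well above background on that array).

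Ratios varied with the brightness of a probe, so each of the 16 probes was set against the 100 other probes nearest to it in mean log2 signal. The median log2 ratio of those neighbours ran from -0.92 to 0.11 against total RNA replicate 1, lowest beside the brightest EEF1A1 probe. Against this array 13 of the 16 probes were below the median of their neighbours, 8 of them below the lower quartile and none above the upper quartile. The probes differed from their neighbours by a median of -0.50 on the log2 scale. Averaged by gene, the difference was widest for EEF1B2 (-1.55), EEF1D (-1.20) and TPT1 (-1.10). It was -0.66 for NACA, -0.65 for RACK1, -0.46 for EEF1G, -0.39 for EEF1A1 and -0.15 for NAP1L1. EEF2 and PABPC1 were the genes not below their neighbours, at 0.06 and 0.40.

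With neighbours chosen by the signal on total RNA replicate 1 alone, the difference against that array was -0.86 for EEF1B2, -1.13 for EEF1D and -0.57 for TPT1. It was -0.34 for RACK1, -0.33 for EEF1G, -0.15 for EEF1A1 and -0.13 for NACA. For each of these genes the deficit was thus smaller than with neighbours chosen by the mean signal. PABPC1 was then further above its neighbours (0.58), and the small differences of NAP1L1 (0.0095) and EEF2 (-0.036) changed sign. Against total RNA replicate 2, 11 of the 16 probes were above the median of their neighbours and the median difference was 0.43. There PABPC1 was 3.91 above its neighbours and NAP1L1 3.13 above, while EEF1D was 2.33 lower (-2.33) and EEF1G 1.33 lower (-1.33). The detected NAP1L1 probe alone was 2.58 above. The other NAP1L1 probe (3.69), among the 11, was not well above background on that array. Neighbours were taken only from probes detected on all 4 arrays, so its difference says little. Against the mean of both total RNA arrays 8 probes were above and 8 below, with a median difference of 0.02. EEF1D, EEF1G and RACK1 were below their neighbours, and PABPC1 above them, whichever total RNA array was used and also with neighbours chosen on total RNA replicate 1. For RACK1 the difference against total RNA replicate 2 was only -0.06, with 49 of its 100 neighbours lower.

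**Figure D3:**
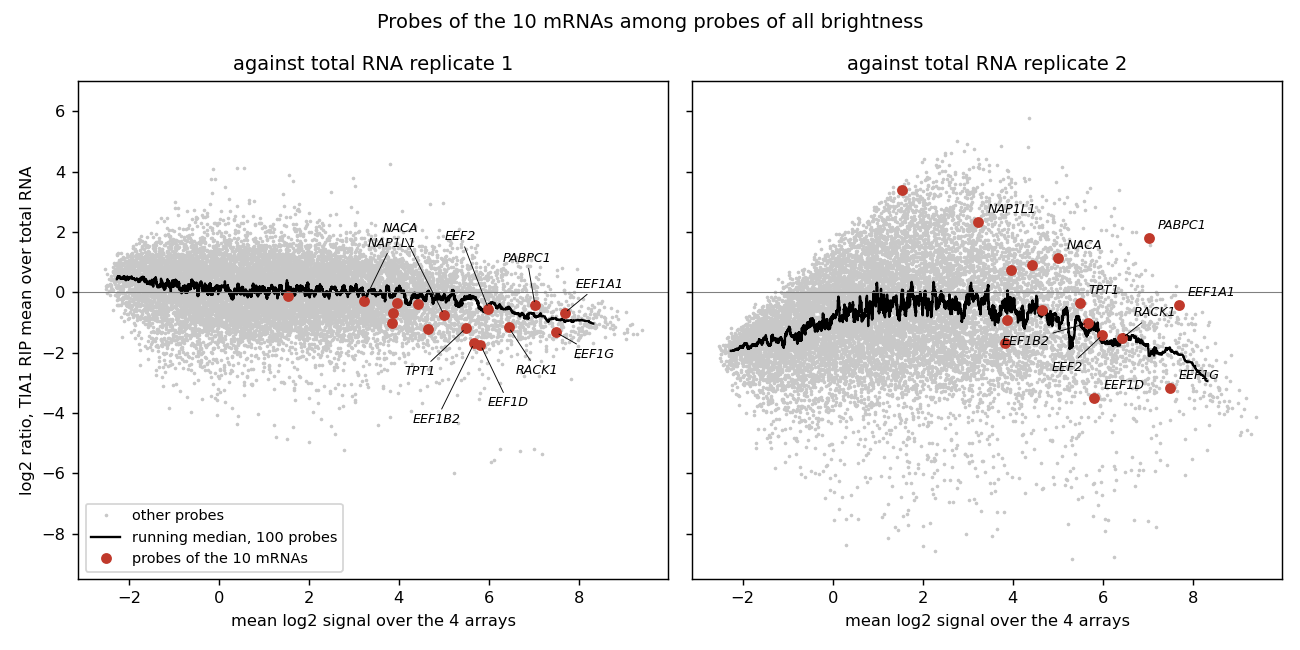
Log2 ratio of the TIA1 RIP mean to total RNA replicate 1 (left) and to total RNA replicate 2 (right) on the y axis against mean log2 signal over the 4 arrays (x axis), for probes detected on all arrays (grey), with a running median over 100 probes (black) and the 16 probes of the 10 mRNAs (red, the brightest of each gene named). On the left 13 of the 16 red points are below the median of their 100 nearest neighbours in mean signal, and on the right 11 are above it. Those 11 include a NAP1L1 probe that was not well above background on total RNA replicate 2. With neighbours chosen on total RNA replicate 1, the gene averages below their neighbours on the left were smaller in size or changed sign.

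The 10 mRNAs differed more between the total RNA arrays than between the TIA1 RIP arrays. The difference between total RNA replicates 2 and 1 ranged from -3.07 (NAP1L1) to 1.86 (EEF1G) with an SD of 1.66 over the 10, whereas the difference between TIA1 RIP replicates 2 and 1 ranged from -0.68 (EEF1D) to 0.26 (EEF1G) with an SD of 0.35. Over all genes these SDs were 2.00 and 0.89, so the total RNA arrays differed more for genes in general, and over the 200 brightest other genes on total RNA replicate 1 they were 1.40 and 0.70. The difference between the total RNA arrays moved with the GC content of the transcripts. NAP1L1 has the lowest GC content of the 10 (38.8%) and stood 3.07 lower on total RNA replicate 2 (-3.07), and EEF1D has the highest (60.6%) and stood 1.78 higher. The NAP1L1 value is the mean of 2 probes, 1 of them not well above background on total RNA replicate 2. Its detected probe had 4.03 on total RNA replicate 1 and 1.41 on replicate 2. Over the 10 mRNAs Pearson's r of GC content with that difference was 0.88, and over the 11636 kept genes with a GC value it was 0.70. These points share the same pair of arrays and genes are not replicates, so the values are descriptions.

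The 1164 genes of lowest GC content (up to 39.5%) had a median difference of -2.04, and the 1164 of highest GC content (62.8% or more) one of 2.10. The ratio against total RNA replicate 1 had an r with GC content of -0.50 over the 10 mRNAs and of -0.05 over the kept genes. The part of GC content in the ratios of the 10 mRNAs was not tested.

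**Figure D4:**
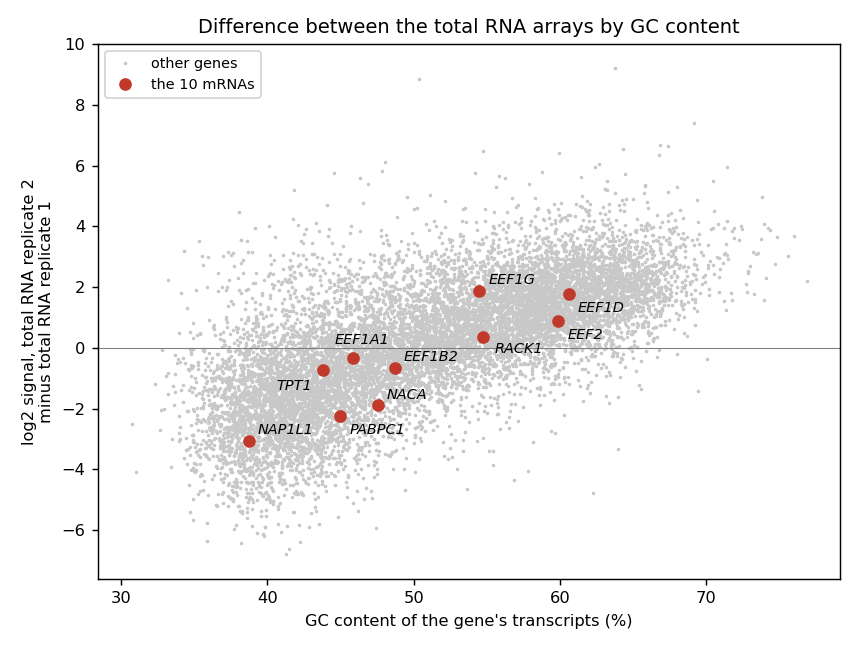
Log2 signal of total RNA replicate 2 minus replicate 1 (y axis) against the GC content of a gene's transcripts (x axis, %), for kept genes (grey) and the 10 mRNAs (red). The red points climb from -3.07 at 38.8% (NAP1L1) to 1.78 at 60.6% (EEF1D), within the grey cloud. The NAP1L1 point is the mean of 2 probes, 1 of them not well above background on total RNA replicate 2.

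Other lists of the same pathways were set beside the 10 mRNAs, without a test of any difference between lists. The lists also differed in brightness, with which ratios varied, and were not matched for it. The median log2 signal on total RNA replicate 1 was 6.14 for the 10 mRNAs and 7.61 for the ribosomal proteins. It was 4.09 for the other TOP mRNAs and 5.91 for the other abundant mRNAs described below. Of the 78 detected mRNAs for cytoplasmic ribosomal proteins, the largest group of TOP mRNAs, 76 had a ratio below 0 against total RNA replicate 1 and 73 against replicate 2. Their median log2 ratio was -1.10 and -1.85 against these arrays and -1.49 on the means, and the highest ratio on the means was 1.27 (RPL22, a large subunit protein). At an unadjusted p under 0.05, 17 of the 78 were lower and none higher in TIA1 RIP, and none was called after adjustment. Another 10 TOP mRNAs that encode no ribosomal protein, 8 of them detected, were lower than total RNA replicate 1 in 7 of 8 cases, with a median of -0.65. Their median against total RNA replicate 2 was 0.57, and their ratios on the means ran from -0.94 (EIF3F) to 1.93 (EIF3E), both subunits of initiation factor 3. EIF3E had 6.13 and 6.01 in TIA1 RIP, 6.35 in total RNA replicate 1 and 1.92 in total RNA replicate 2, so it turned with the total RNA array as PABPC1, NAP1L1 and NACA did.

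Translation factors outside the TOP class differed from the 10 mRNAs in their medians against both total RNA arrays, with no test of the difference. They were also dimmer. Their median log2 signal on total RNA replicate 1 was 1.07 for other elongation and termination factors and 2.70 for mitochondrial elongation factors. The 9 detected mRNAs among 10 other elongation and termination factors had a median of -0.05 against total RNA replicate 1, with 5 below 0, and of 0.04 against replicate 2, and none of their 16 annotated starts had a C followed by at least 4 pyrimidines. Their ratios on the means ran from -1.44 for EEF1A2, the muscle and nerve form of elongation factor 1A, to 1.77 for ABCE1, which splits ribosomes after termination. EEF1A2 differed widely within both groups, at -1.44 and 2.32 in TIA1 RIP and -0.98 and 4.74 in total RNA. The 4 mitochondrial elongation factor mRNAs had medians of -0.23 and 1.54 against total RNA replicates 1 and 2 and ran from -1.51 (TUFM) to 1.39 (GFM2) on the means.

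Relatives and partners of PABPC1, NAP1L1 and NACA were, by the median, above 0 against both total RNA arrays, where these 3 mRNAs were below 0 against replicate 1. These relatives and partners were dimmer. On total RNA replicate 1 the median log2 signal was 2.25 for the poly(A) list and -0.05 for the NAP1 and NACA list. The 6 detected mRNAs for other poly(A) binding proteins and their partners had medians of 0.43 against total RNA replicate 1 and 1.51 against replicate 2. They ran on the means from -0.26 (PABPC4) to 2.41 (PAIP2, an inhibitor of poly(A) binding protein). Against total RNA replicate 1, 2 of the 6 were below 0, PABPC4 (-0.27) among them. PAIP2 had 3.49 and 3.78 in TIA1 RIP against 2.26 and 0.20 in total RNA, without overlap, with a limma p of 0.0377 before adjustment and 0.776 after it. The 6 detected mRNAs of the NAP1 family and of partners of NACA had medians of 0.24 and 1.38 against total RNA replicates 1 and 2, and ran on the means from -0.23 (NACA2) to 1.75 (NAP1L5). NACA2, a near copy of NACA, had 3.82 and 3.97 in TIA1 RIP and 5.02 and 3.23 in total RNA, the same order of arrays as NACA. It was the 1 mRNA of its list below 0 against total RNA replicate 1 (-1.12).

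The 19 detected mRNAs of a list of other abundant mRNAs had medians of -0.18 and -0.66 against total RNA replicates 1 and 2, with 12 of 19 below 0 against each. On the means they ran from GAPDH, at -2.06, to B2M, the light chain of MHC class I, at 1.28. Of the 23 annotated starts in this list, 2 (TUBB and HSP90AB1) also had a C followed by at least 4 pyrimidines. Among kept genes that had an annotated start and were outside the ribosomal proteins, 687 with such a run had a median log2 ratio of 0.04 on the means. The median for 9291 without one was 0.02. These medians were 0.10 and 0.08 against total RNA replicate 1, and -0.04 and -0.11 against replicate 2.

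**Figure D5:**
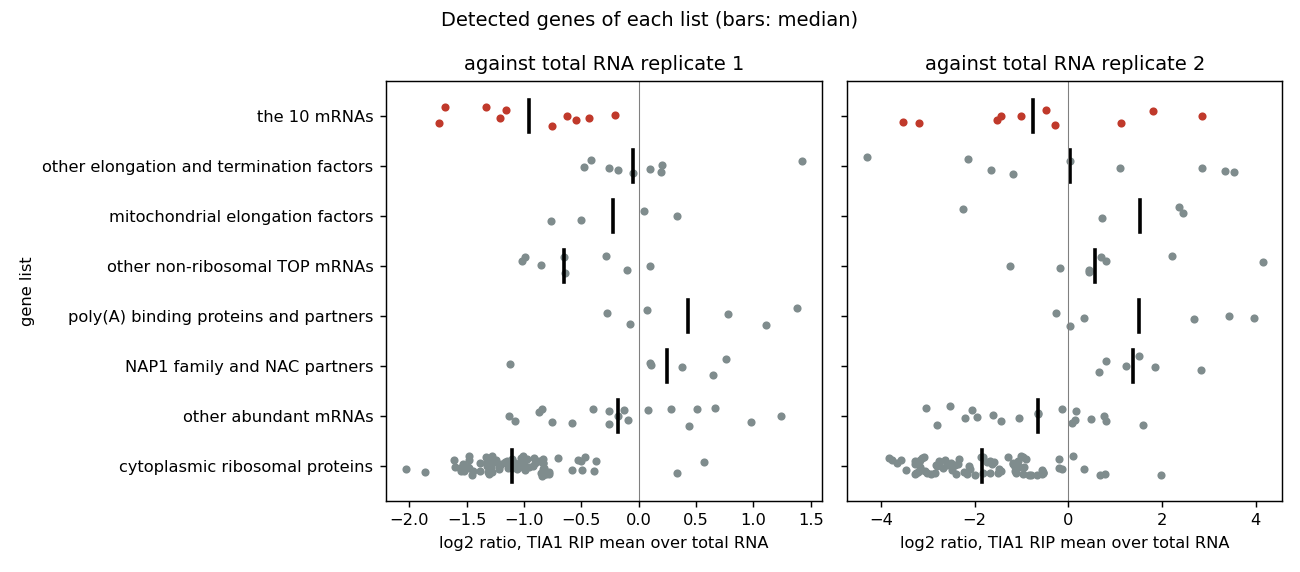
Log2 ratio of the TIA1 RIP mean to total RNA replicate 1 (left) and replicate 2 (right) on the x axis for the detected genes of each list (y axis), with a bar at the median. On the left the medians of the 10 mRNAs (-0.95), the other TOP mRNAs (-0.65) and the ribosomal proteins (-1.10) are the lowest of the 8 lists, and on the right the medians of the 10 mRNAs and the other TOP mRNAs are -0.75 and 0.57. The lists were not matched for brightness (median log2 signal on total RNA replicate 1 from -0.05 to 7.61).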

How the data were processed

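The authors hybridized 4 arrays and deposited Agilent Feature Extraction 10.7.1.1 output, with a processed intensity per spot on a linear scale after background subtraction, raw median intensities and, as other columns, spot flags. The deposited intensities are not normalized between arrays. The paper names GeneSpring, a normalization of precipitated mRNAs to constitutive mRNA levels and a comparison with GAPDH, but no scaling between arrays and no test for this step.

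The processed signal was converted to log2, spots flagged as uneven or deviant were dropped, and the array's 75th percentile was subtracted. A probe was detected where at least 0.5 of its spots were well above background, and kept where detected on both arrays of a group (20106 probes). Symbols came from RefSeq accessions and GENCODE on GRCh37 (34509 of 50599 probes). Kept probes of a gene were averaged. limma 3.58.1 in R 4.3.3 tested all 4 arrays without a block, with Benjamini-Hochberg adjustment and a threshold of 0.05. GC content is the median over a gene's protein-coding transcripts (89.2% of kept genes). Normexp used median intensities in place of mean ones. The number of arrays limits the precision.

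The 10 mRNAs and the lists were chosen with earlier results of these data known. Named genes were all 10 mRNAs, GAPDH, and the highest and lowest detected gene of each list, of which 1 is not reported here. The fits were tested on simulated data.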

Additional observations from a re-analysis of the deposited data

How the results depend on the processing

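The count of genes called in TIA1 RIP against total RNA, 0 as reported, ran from 0 to 3900 when each array was left out in turn. The highest count came without total RNA replicate 1, where the log2 ratios of the 10 mRNAs ran from -3.52 (EEF1D) to 2.86 (NAP1L1). The lone total RNA array was then assumed to vary like the TIA1 RIP arrays. The count of the 10 mRNAs past 2.5-fold relative to GAPDH ran from 0 to 8 over the same fits, and was 2 with quantile normalization against 4 as reported. Leaving out each array gave log2 ratios of -0.43 to 1.80 for PABPC1, -0.20 to 2.86 for NAP1L1 and -0.75 to 1.12 for NACA, negative in each case without total RNA replicate 2.

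Scaling to the E1A spike-in controls moved the median log2 ratio of all genes from -0.04 to 5.20. It called 10283 of the 13039 genes, all of them higher in TIA1 RIP, and 5 of the 10 mRNAs, a smaller share. The ratio then became 4.79 for EEF1A1, 3.88 for EEF1B2, 2.61 for EEF1D, 2.98 for EEF1G, 4.25 for EEF2, 4.39 for TPT1 and 3.90 for RACK1, and PABPC1, NAP1L1 and NACA were called at 5.93, 6.57 and 5.42. EEF1A1 and TPT1 were called too. The median over all genes was 0.13 with quantile normalization, 0.27 with the percentile of probes detected on all arrays, -0.13 with normexp and -0.57 with no detection filter. EEF1A1 turned to 0.027 with quantile normalization. Under the other scalings, filters and probe rules each of the 10 ratios to the mean of both total RNA arrays kept its sign. Against total RNA replicate 2 alone the median of the 10, -0.75 as reported, was 0.18 with normexp and 0.11 with quantile normalization. The medians over all genes were -0.33 and 0.06 there. With the percentile of probes detected on all arrays, 5 of the 10 lay below that array on both TIA1 RIP arrays (38.7% of all genes), where 7 did as reported.

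The replicate block called 356 genes, 57 of them higher, and none of the 10 mRNAs. The replicate numbers share no stated lysate or day, and deviations of same-numbered arrays correlated with r = 0.45 over genes. With runs of at least 8 pyrimidines 22.2% of the 9 annotated starts qualified, beside 1.45% of all starts. With the run allowed within 10 bases of the start 77.8% did, beside 33.5% of all starts. The 4 arrays lay on 1 slide, so the slide as a block was not run.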
